A study of Danio rerio with 6 samples.

Results

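Genes that copy DNA and genes that divide the cell were followed in RNA of whole kidney marrow from control and il7 mutant zebrafish. The list held 36 gene symbols, 18 that act mainly at the start of or during S phase and 18 that act mainly in mitosis, and zebrafish symbols were matched without regard to case. Of these, 35 symbols were found as 37 of the 32267 features in the table, because mcm6 and rrm2 each named 2 features. No feature carried the name birc5a, and cdk2 was listed at 0 in every library. With a filter that kept features averaging 10 normalized counts or more, 35 features entered the test, 18 of S phase and 17 of mitosis. The second rrm2 feature (ENSDARG00000020711), at 4.44 to 15.9 normalized counts, fell below it. A normalized count is a read count that the authors scaled by a factor for its library. This scaling did not make library totals equal, and they ran from 35550863 in il7 mutant 2 to 43157256 in control 3.

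A cell copies its genome once per division. The MCM helicase is loaded onto replication origins by cdc6 and cdt1, gmnn blocks a repeat of that loading, cyclin E with its kinase starts S phase, and the ribonucleotide reductase subunits and tyms supply the nucleotides. At mitosis cdk1 with A and B cyclins drives entry, the aurora and polo kinases and the kinesins build the spindle, and cdc20 starts the destruction of cyclins and of the protein that holds back separase, encoded by espl1. In kidney marrow, the main blood-forming tissue of adult fish, these genes are known from dividing blood precursors. Oocytes of fish and frogs also store cyclin and MCM transcripts for the divisions of the early embryo.

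There were 6 libraries of unfractionated cells, 3 from wt fish (control 1 to 3) and 3 from fish whose il7 gene, which encodes interleukin 7, lacks exons 2 to 4 inside the gene (il7 mutant 1 to 3). Both groups were of the background strain TLEK. Age, sex, zygosity and the number of fish per library were not in the labels, so p-values reflect how far the sequenced libraries differ, and that spread may be technical. The libraries held 34496353 to 46120889 reads assigned to genes. Normalized counts of the targeted gene were 16.5, 17.8 and 4.00 in the mutants, all below the 89.8, 61.6 and 57.7 of the controls.

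Some libraries held transcripts known from the gonad. The 19 oocyte markers found summed to 378770 normalized counts in control 1 and 178848 in il7 mutant 2, against 799, 637, 328 and 428 in control 2, control 3, il7 mutant 1 and il7 mutant 3, where 1 or 2 of the 19 were at 0 in each and the defining markers zp3b and buc stood at 27.0 to 68.7. The meiosis genes sycp1, sycp3 and dmc1 stood highest in control 3 and il7 mutant 3, with sycp1 at 1838 and 1051 normalized counts, sycp3 at 653 and 242 and dmc1 at 183 and 76.9. Summed over all 27 testis and meiosis markers, however, the counts were highest in control 1, at 30507, and il7 mutant 2, at 19245, against 12196 in control 3, 6026 in il7 mutant 3, 1274 in il7 mutant 1 and 621 in control 2. Of these, ccna1, a germ cell A cyclin, made up 17345 in control 1 and 11160 in il7 mutant 2. Taken as the median of log2(normalized count + 1) minus each gene's mean, the 26 tested markers stood highest in control 3 and il7 mutant 3. These levels were 2.48 and 1.61, against 0.11 in il7 mutant 2 and −0.49 in control 1. In il7 mutant 1 and control 2 the level was −0.55 and −2.71. Red cell markers summed to 84111 in control 1, to 206994 in il7 mutant 2 and to 329417 or more in the others, and lymphocyte markers to 6522 to 11931. The sample is a mixture of cells, so fewer cells of a type and less RNA per cell cannot be told apart.

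Control 1 and il7 mutant 2 carried the highest counts of most of the cell cycle genes. They were the highest libraries for 26 of the 35 tested members, 74.3%, where 23.9% of all tested genes had that order. Control 1 stood at least 2-fold above both other controls, and il7 mutant 2 at least 2-fold above both other mutants, for 17 of 35 members, 48.6%, against 8.51% of all tested genes. That fold was chosen after the values were seen. The last member inside it was kif11, 4.48-fold and 2.16-fold above, and bub1, at 3.82-fold and 1.95-fold, and bub1bb, at 2.27-fold and 1.87-fold, lay just outside. The oocyte markers were at least 2-fold above in the same libraries for 19 of 19. These markers set this pair of libraries apart in the first place, so that count is no separate result. Their part in the members' values was not tested.

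The B cyclins showed the widest gap among mitosis genes. The cyclin gene ccnb1 had 27966 normalized counts in control 1 and 14820 in il7 mutant 2, where the other libraries held 929, 1006, 1021 and 1024. For ccnb2 the counts were 14299 and 7581 against 105 to 149, so that control 1 was 109-fold above the next control and il7 mutant 2 was 51.0-fold above the next mutant. In contrast ccnb3, a B-type cyclin of a separate family, had 540 and 446 against 258 to 404. Apart from that pair of libraries the ccnb1 counts lay within 929 to 1024, a narrow band across both genotypes.

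Other mitosis regulators followed at smaller folds. The kinase gene aurka, which acts at spindle poles, had 5766 normalized counts in control 1 and 3233 in il7 mutant 2, against 187 to 343 elsewhere. The polo kinase gene plk1 had 14788 and 8508 against 885 to 1601, and cdc20 had 10798 and 5748 against 267 to 641. Both counts of ccna2, the A cyclin of S phase and mitosis, were above all others, at 10558 and 7188 against 1187 to 1446. The kinesin genes kif23, of the dividing bridge between daughter cells, and kif11, which pushes spindle poles apart, had 6702 and 4234 against 572 to 937, and 6670.5 and 4354 against 1199 to 2012. The second aurora kinase, aurkb, had 5752 and 3809 against 962 to 1429.

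Structural and checkpoint genes of mitosis stood less far above the rest in these libraries. The topoisomerase gene top2a had 6399 normalized counts in control 1 and 4766 in il7 mutant 2, against 2457 to 3070.2. The counts of cdk1 were 2583 and 2213 against 1119 to 1544, and those of espl1 were 2563 and 1830.4 against 676 to 1033. The checkpoint kinase gene bub1 had 3631 and 2655 against 823 to 1360.4, and bub1bb had 415 and 399.6 against 169 to 214. The proliferation marker mki67, a coat of mitotic chromosomes, had 4463 in control 1, 5430 in il7 mutant 2 and 2751 to 4562 in the others, so control 1 lay between the other controls. For cenpf, which binds kinetochores, control 1 was the lowest of all 6 libraries, as it was for 3 of 35 members against 26.4% of all tested genes.

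**Figure D1:**
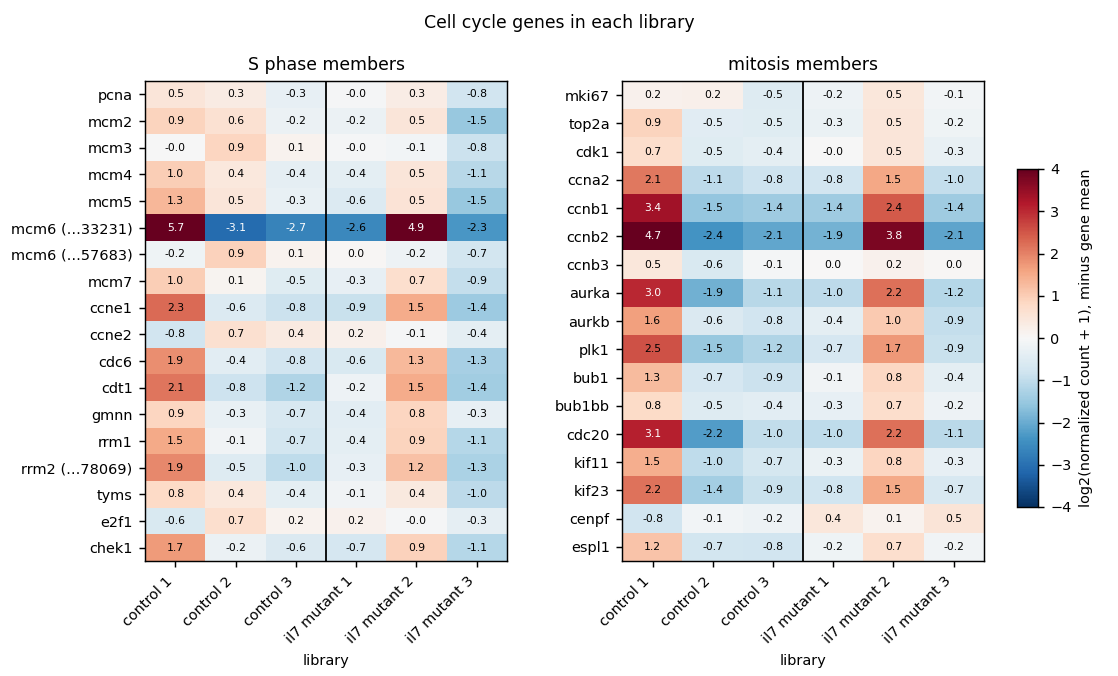
Each cell gives log2(normalized count + 1) of a tested member in a library, minus the gene's mean over the 6 libraries, with genes in rows, libraries in columns and colours that saturate at −4 and 4. Control 1 and il7 mutant 2 are red for most genes, with ccnb2 and 1 of the mcm6 features darkest, while mcm3, the other mcm6 feature, ccne2, e2f1 and cenpf are not red in control 1.

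Among S phase genes the features named mcm6 split in how the libraries stood. One mcm6 feature (ENSDARG00000033231) had 8177 normalized counts in control 1 and 4715 in il7 mutant 2, against 17.2, 23.3, 24.8 and 29.97 in the others. The other (ENSDARG00000057683) had 1946 and 1887 in those libraries, against 4157, 2380 in controls 2 and 3 and 2243, 1295 in mutants 1 and 3, so control 1 was the lowest control. In the frog Xenopus a maternal and a zygotic MCM6 gene are known, and RefSeq lists a zebrafish mcm6 and an mcm6l, but no table used here pairs those with these identifiers. The same split appeared for mcm3, at 1633, 3004 and 1823 in the controls against 1606, 1535 and 916 in the mutants, and mcm3l, which is no member and was looked up after the values were seen, with 9018 in control 1, 4603 in il7 mutant 2 and 5.89 to 8.08 elsewhere. Similar copies can share reads, so counts of these pairs are uncertain, and levels of different genes are not comparable, since the counts are not per length.

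The E cyclins divided in the same way. The gene ccne1 had 1784 normalized counts in control 1 and 1039 in il7 mutant 2, against 137 to 254 in the rest. For ccne2 control 1 was the lowest of all 6 libraries, at 279.6 against 365 to 753, and il7 mutant 2 had 458. A further pair, taken from the list of other mitosis genes after its values were seen, was wee2 and wee1, kinases that inhibit cdk1. Counts of wee2 were 6815 and 3843 in those libraries and 147 to 238 in the others, while the controls had 2065, 1704 and 1255 of wee1 and the mutants 1135, 1218 and 971. A survivin copy, birc5b, also looked up after the values were seen, had 5448 and 2045 against 0.999 to 10.1, while the feature named BIRC5, looked up with it, had 1356 and 786 against 270 to 350, and neither was counted as birc5a.

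**Figure D2:**
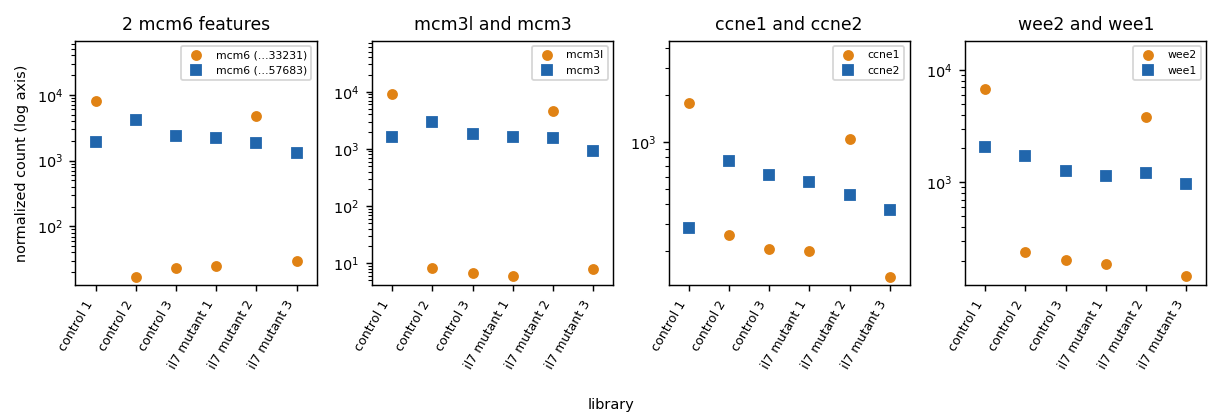
Normalized counts on log axes for pairs of related genes in each of the 6 libraries, with circles for the copy that stood high in control 1 and il7 mutant 2 and squares for the other. The circles of the mcm6 feature ENSDARG00000033231, mcm3l, ccne1 and wee2 are far higher in that pair of libraries than elsewhere, while the squares of mcm6 feature ENSDARG00000057683, mcm3, ccne2 and wee1 lie within a narrower band. Circles were assigned from these same counts, so the figure does not test whether copies split. Related genes that were both high there, such as ccnb1 with ccnb2 and aurka with aurkb, are not drawn.

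The remaining MCM subunits stood between these extremes. Normalized counts of mcm5 were 6806 in control 1 and 3919 in il7 mutant 2, against 946 to 3794 in the others, and those of mcm7 were 11498 and 9215, against 3020.2 to 6307. For mcm4 the counts were 8694 and 6210.0 against 2074 to 5897. For mcm2 the counts were 7036 and 5275 against 1337 to 5789, so control 2 passed il7 mutant 2. The sliding clamp gene pcna had 15763, 13872 and 8959.6 in the controls, while the mutants held 10817, 13869 and 6608, and il7 mutant 2 did not exceed control 2.

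Licensing genes and the tested reductase subunit genes were high in that pair of libraries. The loader genes cdc6 and cdt1 had 4701 and 3438 normalized counts in control 1 and 3164 and 2168 in il7 mutant 2, against 519 to 973 and 296 to 684. Their inhibitor gmnn had nearly equal counts of 5123 and 5107, against 1807 to 2295. The reductase subunit genes rrm1 and rrm2 (ENSDARG00000078069) had 15632 and 12192 in control 1 and 9993 and 7310 in il7 mutant 2, against 2456 to 4929 and 1339 to 2545. The checkpoint kinase gene chek1 had 1297 and 749.6 against 178 to 331. Smaller differences were seen for tyms, the thymidylate synthase gene, which the controls held at 2623, 2021 and 1152 and the mutants at 1379, 1977 and 734. The transcription factor gene e2f1, which switches on S phase genes, was lowest in control 1, at 93.0 against 111 to 224.

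**Figure D3:**
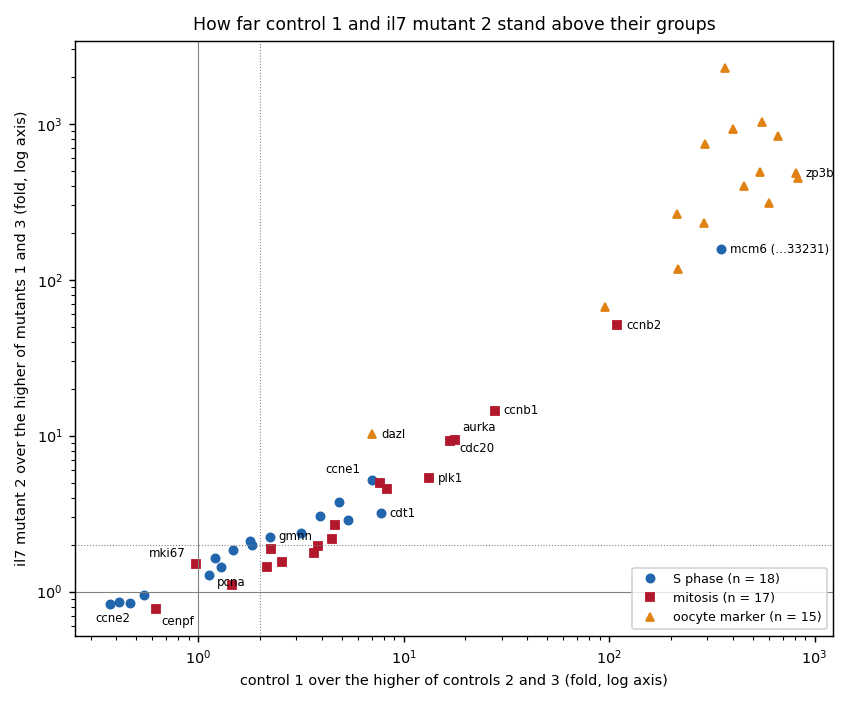
For each tested member, the fold of control 1 over the higher of controls 2 and 3 (x axis, log) against the fold of il7 mutant 2 over the higher of mutants 1 and 3 (y axis, log), with 15 oocyte markers above 0 in every library as triangles, dotted lines at 2-fold and solid lines at no difference. The members run from below 1 on both axes, with ccne2 and cenpf, to 351-fold and 157-fold for an mcm6 feature, and the oocyte marker zp3b lies at 814-fold and 481-fold.

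Control 1 was at or above il7 mutant 2 for the 17 members past 2-fold, by factors that varied. The ratio of control 1 to il7 mutant 2 ran from 1.00 for gmnn to 1.89 for ccnb1 over the 17 members past 2-fold, with a median of 1.63 for the S phase and 1.74 for the mitosis members among them. For the same libraries it was 1.79 for zp3b and 2.04 for buc. Over the 15 oocyte markers with counts above 0 in all libraries it ran from 1.33 to 3.54, with a median of 2.07. What sets these ratios was not tested. The members with the widest gaps lay close to each other, at 1.89 for ccnb2, 1.88 for cdc20, 1.78 for aurka, 1.74 for plk1 and 1.73 for the mcm6 feature ENSDARG00000033231. For cenpf the ratio was 0.531, and for ccne2 it was 0.610.

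S phase and mitosis members did not keep the same order of libraries. As the median over members of log2(normalized count + 1) minus each gene's mean, the S phase level was 0.98, 0.21 and −0.44 in controls 1, 2 and 3 and −0.33, 0.60 and −1.12 in mutants 1, 2 and 3. The mitosis level was 1.46, −0.72 and −0.77 in controls and −0.34, 0.85 and −0.40 in mutants. The S phase level minus the mitosis level was therefore highest in control 2, at 0.94, followed by control 3 at 0.33 and il7 mutant 1 at 0.01. It was below 0 in il7 mutant 2, at −0.25, control 1, at −0.48, and il7 mutant 3, at −0.72, so the genotypes overlapped. Outside control 1 and il7 mutant 2, il7 mutant 3 was the lowest library for 16 of 18 S phase members, against 28.2% of all tested genes, and for 1 of 17 mitosis members. Of the same 4 libraries, control 2 was the highest for 15 of 18 S phase members, against 29% of all tested genes, and the lowest for 11 of 17 mitosis members, against 28.2%. The highest of the 4 was il7 mutant 1 for 8 of 17 mitosis members, against 23.5% of all tested genes.

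**Figure D4:**
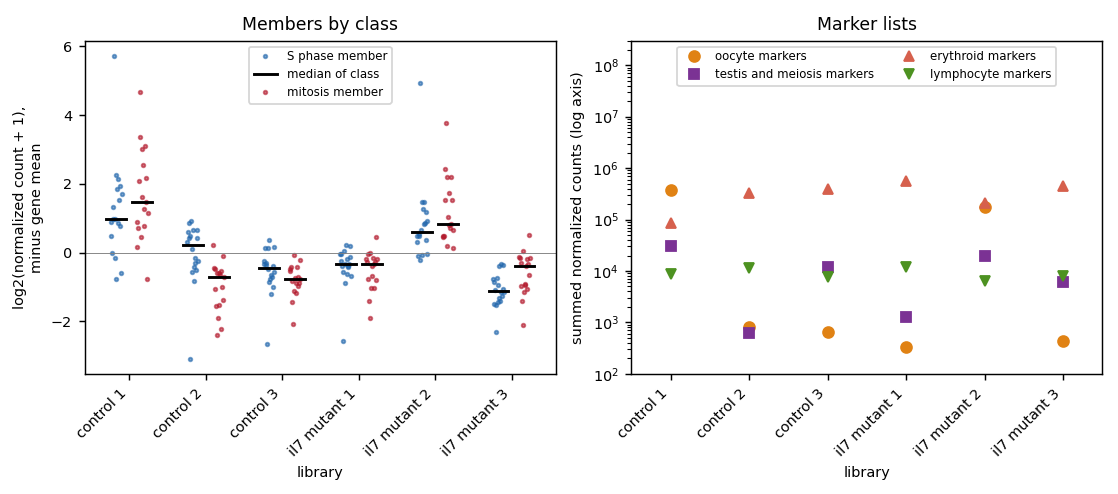
Left, each point is a tested member in a library, as log2(normalized count + 1) minus the gene's mean, in blue for S phase and red for mitosis, with black bars at the class medians, and right, the summed normalized counts of marker lists per library on a log axis. Medians of both classes are highest in control 1 and il7 mutant 2, where oocyte markers sum to 378770 and 178848. The S phase bar is above the mitosis bar in controls 2 and 3. It is below the mitosis bar in control 1, il7 mutant 2 and il7 mutant 3, and nearly level with it in il7 mutant 1.

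In the comparison of il7 mutant with control, which asks what il7 does in lymphocyte development, no cell cycle gene passed the test. By limma with adjustment over all 20782 tested genes 0 of 35 members had an adjusted p under 0.05, as had 0% of all tested genes. The targeted gene il7 did not pass either, at a log2 change of −2.55 (SE 0.66) and an unadjusted limma p of 0.00703. In the authors' deposited table il7 had an adjusted p of 0.0403. A lack of calls in this fit therefore does not show that the members were unchanged. At an unadjusted p under 0.05 there was 1 member, cenpf, which was higher, where 3.48% of all tested genes had such a p, 1.36% higher and 2.12% lower. The S phase members had a median log2 change of −0.44, with 16 of 18 below 0, and the mitosis members one of 0.09, with 13 of 17 above 0. Over all tested genes the median was −0.04, 54.1% were below 0 and 45.9% above. These signs are not calls, and the medians moved with single libraries. The S phase median was −0.90 without il7 mutant 2 and −0.02 without il7 mutant 3. The mitosis median was 0.86 without control 1 and turned to −0.30 when control 2 was left out instead, and to −0.21 when control 3 or il7 mutant 2 was.

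Among S phase genes mcm5, mcm2, mcm4 and mcm3 had the lowest changes. Controls averaged 4268 ± 2338 normalized counts of mcm5 (SD, n = 3) and mutants averaged 2236 ± 1525, which gave a log2 change of −1.02 (SE 0.62). The averages were 5353 ± 1939 (SD, n = 3) and 3274 ± 1970 for mcm2, with a log2 change of −0.85 (SE 0.55). The groups overlapped for both genes. For mcm3, at 2153 ± 743 and 1352 ± 379 (SD, n = 3), the 3 mutants lay below the 3 controls, though il7 mutant 1 and control 1 were close, at 1606 and 1633, and the log2 change was −0.66 (SE 0.34). It was the only S phase member without overlap, and 4.44% of all tested genes had mutants wholly below controls. This single gene gives no result about the S phase class. The log2 change was −0.67 (SE 0.50) for mcm4, −0.60 (SE 0.36) for the mcm6 feature ENSDARG00000057683, −0.41 (SE 0.52) for mcm7 and −0.33 (SE 0.35) for pcna. Each of these had a limma adjusted p of 1.00.

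For S phase genes high in control 1 and il7 mutant 2 the comparison had little precision. The mcm6 feature ENSDARG00000033231 had a log2 change of 0.02 with an SE of 2.99, and the SE was 1.07 for ccne1 and for cdt1. The changes were −0.57 for ccne1, −0.44 for cdc6 (SE 0.91), −0.08 for cdt1, −0.44 for rrm1 (SE 0.72), −0.27 for rrm2 (SE 0.92) and −0.60 for chek1 (SE 0.78). The highest S phase value was that of gmnn, at 0.07 (SE 0.51). The remaining members had −0.54 (SE 0.46) for tyms, −0.16 (SE 0.42) for ccne2 and −0.14 (SE 0.41) for e2f1. All of these changes were smaller than 2 times their SE.

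Of the mitosis genes, cenpf had the largest log2 change. Its normalized counts were 473, 755 and 698 in the controls against 1099.9, 891 and 1145 in the mutants, so each mutant lay above each control. Means of 642 ± 149 (SD, n = 3) and 1045 ± 135 corresponded to a log2 change of 0.72 (SE 0.26), with an unadjusted limma p of 0.0307 and an adjusted p of 1.00. The two-sided exact permutation p for cenpf was 0.1, which is the lowest that 3 libraries a group allow. It was the only mitosis member without overlap, and 3.51% of all tested genes had mutants wholly above controls. A single such member gives no result about the class. The authors' deposited table gave cenpf 0.70 on the log2 scale, at an adjusted p of 0.814. The change was 0.52 without control 1 and 0.85 without control 2, and its unadjusted p was above 0.05 without control 1, il7 mutant 1 or il7 mutant 3, at 0.0636, 0.0941 and 0.0925.

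All other mitosis members lay between −0.25 and 0.22 on the log2 scale. The lowest were ccnb1 at −0.25 (SE 1.63), aurkb at −0.19 (SE 0.78), ccnb2 at −0.15 (SE 2.37) and ccna2 at −0.13 (SE 1.03). Those with the smallest errors were mki67 at 0.09 (SE 0.30), ccnb3 at 0.15 (SE 0.33) and cdk1 at 0.12 (SE 0.39). Controls averaged 3926 ± 1018 counts of mki67 (SD, n = 3) and mutants averaged 4166 ± 1098. The authors' deposited table called 0 of the members at an adjusted p under 0.05, where it called 0.521% of all features with an adjusted p. It listed 9 tested members with a fold change but no p-value, mcm6 (ENSDARG00000033231), ccne1, ccna2, ccnb1, ccnb2, aurka, plk1, cdc20 and kif23. All 9 were among the 17 members that stood 2-fold above in control 1 and il7 mutant 2. How many of all tested genes lacked a p-value there was not counted, so this overlap gives no result about the members.

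**Figure D5:**
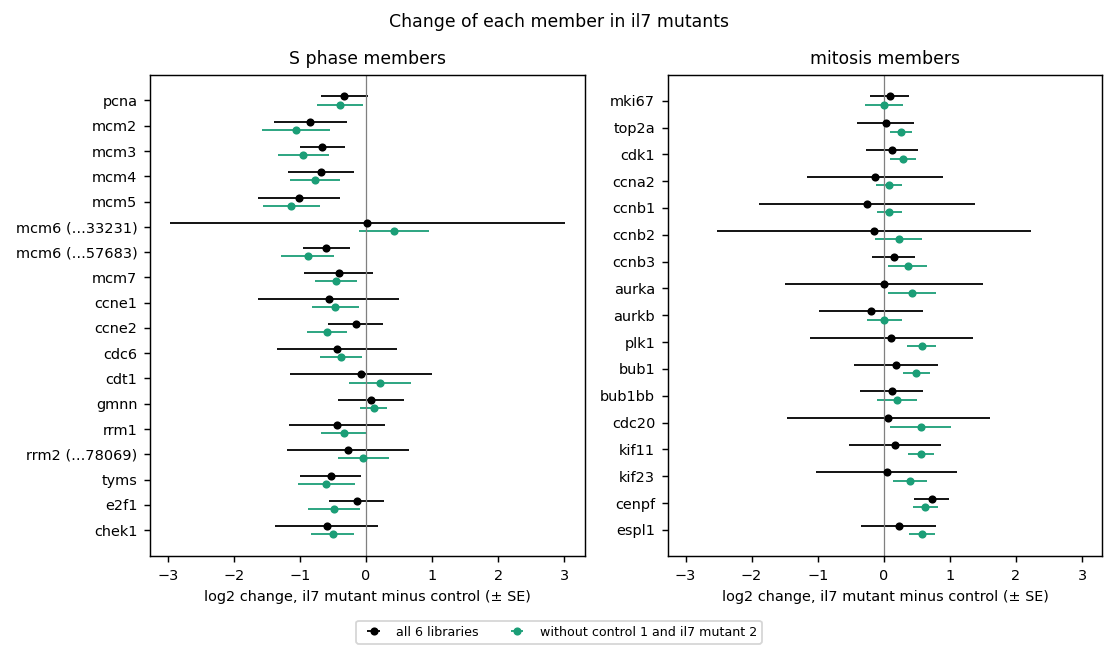
Log2 change of each tested member in il7 mutants against controls (x axis, ± SE from limma), with all 6 libraries in black and without control 1 and il7 mutant 2 in green. Most S phase points lie left of 0 and most green mitosis points right of it, and the error bars of ccnb2, ccnb1 and an mcm6 feature shrink when that pair of libraries is left out.

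Without control 1 and il7 mutant 2 the classes lay further apart, and again 0 members passed the adjustment, as did 0% of all tested genes. From the 4 libraries left, the S phase median was −0.48 and the mitosis median 0.36, with 15 of 18 below 0 and 16 of 17 above 0, against 52% and 47.9% of all tested genes. The mutants lay wholly above the controls for 11 of 17 mitosis members and 1 of 18 S phase members, the mcm6 feature ENSDARG00000033231, against 15.7% of all tested genes. They lay wholly below for 8 of 18 S phase members and 0 of 17 mitosis members, against 16.6%. The 8 lower genes were mcm2, mcm3, mcm4, mcm5, the mcm6 feature ENSDARG00000057683, ccne1, ccne2 and chek1. Among the 11 higher genes were cenpf, espl1, kif11, plk1 and bub1, with log2 changes of 0.63 (SE 0.19), 0.58 (SE 0.19), 0.56 (SE 0.20), 0.57 (SE 0.22) and 0.49 (SE 0.21).

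Single counts show the size of these shifts. In controls 2 and 3 kif11 had 1199 and 1489.9 normalized counts, and in mutants 1 and 3 it had 2012 and 1936. For espl1 the counts were 697 and 676 against 1015 and 1033. For mcm5 they were 3794 and 2203 against 1844 and 946, a log2 change of −1.13 (SE 0.44), and il7 mutant 3 was the lowest of them. At an unadjusted p under 0.05 there were 3 mitosis members, kif11 (0.0388), cenpf (0.0239) and espl1 (0.0315), all higher, where 2.35% of all tested genes were, and 0 S phase members, where 2.96% of all tested genes were lower. Their adjusted p in limma ran from 0.848 to 0.913. Counted over both classes and directions these were 3 of 35 members, against 1104 of 20782 tested genes. So few members give no result about the class. With all 6 libraries and that pair as a model term, the unadjusted p was 0.00448 for cenpf, 0.0186 for mcm5 and 0.0411 for chek1, and the limma adjusted p 0.427, 0.528 and 0.598. Those were 3 of 35 members under 0.05 in that fit, where 8.05% of all tested genes were, so the count gives no result about the members. In these 4 libraries the meiosis markers were uneven in both genotypes, with sycp1 at 5.05 and 1838 in the controls against 118 and 1051 in the mutants, and the part they played was not tested.

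Of the wider lists of these pathways, the replication list lay on the same side of 0 as the S phase members, and the mitosis list was spread over both sides. Of 38 tested genes of other replication machinery, 36 had a log2 change below 0, against 54.1% of all tested genes. Their level per library, taken as for the members, was 1.01, 0.06 and −0.45 in controls 1, 2 and 3. In mutants 1, 2 and 3 it was −0.23, 0.48 and −0.81, so the genotypes overlapped. Outside control 1 and il7 mutant 2, il7 mutant 3 was the lowest library for 31 of 38, against 28.2% of all tested genes. The median change of the 38 was −0.47, and 0 had an unadjusted limma p under 0.05, where 3.48% of all tested genes had. That count is near the share of all genes and gives no result about the list. The smallest p values there belonged to tk1, a thymidine kinase, at 0.46 (SE 0.27), orc5, an origin recognition subunit, at −0.65 (SE 0.42), and rfc4, a clamp loader subunit, at −0.49 (SE 0.36). Of 48 tested genes of other mitosis machinery, 22 were above 0 and 26 below, with a median of −0.01. At an unadjusted limma p under 0.05 there were 0 of them, against the same 3.48%, which again gives no result about the list. The nearest were wee1 at −0.57 (SE 0.25), the kinesin gene kif15 at −0.29 (SE 0.31) and the phosphatase gene cdc25b, which activates cdk1, at −0.44 (SE 0.56). With control 1 and il7 mutant 2 left out, 38 of these 48 were above 0, against 47.9% of all tested genes, with a median of 0.13. In the libraries left, mutants lay wholly below controls for 3 of the 38 replication genes and 4 of the 48 mitosis genes. That compares with 8 of 18 S phase members and 16.6% of all tested genes. They lay wholly above for 1 of the 38 and 13 of the 48, against 15.7% of all tested genes. The separation of the S phase members was thus not seen in the wider replication list. Control 1 and il7 mutant 2 stood at least 2-fold above the others of their group for 11 of the 38 replication and 19 of the 48 mitosis genes, against 8.51% of all tested genes.

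Genes that act before S phase or hold back division had no common direction. Of 28 tested G1 regulators and cell cycle brakes, 16 were above 0 and 12 below, against 45.9% and 54.1% of all tested genes. Their median was 0.03. Where 3.48% of all tested genes had an unadjusted limma p under 0.05, 1 of the 28 did. This was mych, a fish gene of the MYC family of growth regulators, for which the controls had 3695, 5985 and 5259 normalized counts and the mutants 1563, 1883 and 1659. The groups did not overlap, with means of 4979.6 ± 1170.1 (SD, n = 3) and 1702 ± 164, and the log2 change was −1.52 (SE 0.24) with a limma adjusted p of 0.556. The authors' deposited table gave mych −1.55 on the log2 scale, at an adjusted p of 0.000297. The brake genes cdkn1a, a kinase inhibitor induced by p53, and btg2, which slows division, had −0.71 (SE 0.33) and −1.20 (SE 0.58). Counts of cdkn1a were 178, 263 and 321 in the controls against 171, 129.9 and 154 in the mutants, without overlap, while those of btg2 overlapped, with 11033 in control 1 and 5404 in il7 mutant 2. In this list the mutants lay wholly above the controls for 1 gene, cdkn2c, a kinase inhibitor of G1 named after its values were seen. Its counts were 108, 63.5 and 105 in the mutants against 44.1, 54.6 and 58.8 in the controls. Over all tested genes 3.51% had mutants wholly above controls. Wholly below were 4.44% of all tested genes and 2 of these 28, mych and cdkn1a. Without control 1 and il7 mutant 2 the median of the 28 was −0.05, and 3 of them, mych, cdkn1a and btg2, had an unadjusted p under 0.05, all lower, where 2.96% of all tested genes were lower.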

How the data were processed

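Per the labels' protocols, a stranded kit with ribosomal RNA depletion turned total RNA of the marrow into libraries. STAR 2.5.3a and featureCounts 1.5.2 are named in the submitters' processing notes, as are DESeq2 1.14.1 and the build GRCz10, all without roles. The use of strand in counting is not given in the sources used here, and overlapping genes are uncertain. The deposited values are a signal per gene, the authors' normalized counts. Each is a multiple of its column's smallest positive value (to 1e-06), taken as 1 read, and these reads gave the depth. From the authors' deposited table, the unshrunken log2 fold change, the p-value and its adjusted value were used, and the deposited standard error and statistic, both scores, were not.

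A names table gave symbols for 26433 of 32267 features. Sample titles gave groups and replicate numbers. Genes averaging at least 10 normalized counts entered limma 3.58.1 (R 4.3.3) as log2(normalized count + 1), fitted with group alone, a variance trend and Benjamini-Hochberg adjustment over all tested genes. Folds on this scale understate changes of low genes. The steps were tested on simulated data with the same spread setting for every gene and without the library differences seen here. That test does not show how many true changes the fit would find in these libraries. Members, lists and tests were chosen with earlier results of these data known. Named genes were il7, all members, the 3 genes with the smallest p in each wider list and 6 gonad markers (zp3b, buc, sycp1, sycp3, dmc1 and ccna1), and others are marked as chosen later. Alternatives covered pseudocount, filter, scaling, variance trend, weights, a replicate block and libraries left out. Promoter motifs were planned and not searched, since no sequences were used here.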

Additional observations from a re-analysis of the deposited data

How the results depend on the processing

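Of 19 alternatives, 1 was added to the plan later, the one without control 3 and il7 mutant 3. The plan itself was made with earlier results of these data known. The alternatives that leave out or model control 1 and il7 mutant 2 also rest on the data, since oocyte marker counts set that pair apart. limma called 0 of all genes at an adjusted p under 0.05 in every alternative, against 723 at an unadjusted p under 0.05 in the fit with all 6 libraries. The count of members at an unadjusted p under 0.05, 1 with all libraries, was 0 with quantile normalization, 0 with a replicate block, 0 without control 3 and il7 mutant 3, 2 with array quality weights, 3 with a model term for control 1 and il7 mutant 2, 3 with these left out, and 0 to 3 when single libraries were left out. Over all 20782 tested genes the count at that p moved too, to 618 with quantile normalization, 634 with the block, 568 without control 3 and il7 mutant 3, 1563 with the weights, 1672 with the model term, 1104 without its libraries, and 492 to 1011 when single libraries were left out. The S phase median stayed below 0, from −0.90 to −0.02 when single libraries were left out, while the mitosis median ran from −0.30 to 0.86. The S phase median minus the mitosis median, −0.53, was below 0 in all 20 settings, from −0.95 without control 1 to −0.25 without control 2. Several settings, such as the variance trend and the replicate block, alter only the errors and could not move this difference. Between libraries of a group, the S phase level minus the mitosis level of a library had a pooled SD of 0.57, about as large as that difference. This SD describes single libraries on another measure and is no error of the difference. The sign of 15 members changed without control 2 and of 6 without control 1 and il7 mutant 2. Other scalings moved the median of all genes by under 0.1 log2 units. Same-numbered libraries had correlated deviations for replicate 3 (0.51) and not for replicates 1 and 2 (−0.51 and −0.40), so the numbers were not taken as pairs. A count model on the recovered reads was planned and was not run.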
